A study of Canis lupus familiaris with 15 samples.

Results

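The series measured RNA of canine lymphoma and skin on 15 one-colour Agilent arrays, 1 sample per array, from 5 dogs. Tumour samples taken before and after metformin from the same animal are described here. They were chosen by the sample labels, with earlier results of these data known, and form 2 pairs, so 4 of the 15 arrays. In the dog MalcolmX, a biopsy of the original drug-resistant lymphoma was set against a fine needle aspirate of the tumour after metformin. In the dog Rosco, an aspirate taken after chemotherapy (named CHOP in the sample title) had failed and before metformin was set against an aspirate taken in remission after metformin. All 4 samples are therefore from tumours labelled drug resistant, and sampling by biopsy or by needle cannot be told apart from treatment in the MalcolmX pair. Each dog gave 1 array per condition, and metformin dose, treatment length and other drugs are not given in the sources used here. A further 3 aspirates of Rosco, taken at relapse after metformin, served as the only replicated aspirates.

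Metformin inhibits the first complex of the mitochondrial respiratory chain, activates the energy sensor AMPK and lowers glucose production by the liver, where PCK1 is the enzyme that commits substrates to gluconeogenesis. A lymphoma sample holds malignant lymphocytes together with vessels, matrix, fat and infiltrating myeloid cells. Chemokines, which these cells release to attract leukocytes, and adhesion proteins on vessels control how immune cells enter the tissue. In such bulk samples fewer cells of a type and less RNA per cell cannot be told apart.

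A level is the log2 processed signal of a probe minus the 75th percentile of its array, so 0 is a bright probe and a difference of 1 is 2-fold. Of 36604 targets, 22269 were well above background on all 4 arrays, and 937 of these carried a gene symbol (of 1340 symbols on the array). The 75th percentile was 813 and 1062 intensity units before and after in MalcolmX and 445 and 367 in Rosco. Between 66.7% and 74.7% of probes were well above background on the 4 arrays. The MalcolmX arrays shared 1 slide, while the Rosco arrays lay on separate slides scanned on the same day. Precision is limited by how few arrays there are, and nothing in the labels describes repeat cultures or animals for any of the 4 samples.

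The lymphocyte genes of the pairs differed before any treatment was compared. MS4A1, which encodes the B cell protein CD20, had levels of 3.18 and 3.21 before and after in MalcolmX and of 0.40 and 0.38 in Rosco. CD8A, a co-receptor of cytotoxic T cells, had levels of -4.09 and -5.28 in MalcolmX and of 3.21 and 2.89 in Rosco. CD8A was thus higher in both Rosco arrays than in both MalcolmX arrays, and MS4A1 was lower. CD52, a surface glycoprotein of lymphocytes, had levels of 5.66 and 5.45 in Rosco, above the highest of the other 13 arrays at -0.56. The T cell genes IL12RB2, CD40LG, IL2, CD28 and ICOS, chosen after their values were seen, likewise lay above all 13 other arrays in both Rosco samples. For IL12RB2, a chain of the interleukin-12 receptor, the levels were 5.58 and 5.65 against at most 0.28 elsewhere. Of 1028 genes with a symbol that were well above background in both Rosco arrays, 88 (8.56%) exceeded all 13 others, and 6 of the 11 T and NK cell markers with a symbol were among them. The relapse aspirates of the same dog had CD52 at -1.05 ± 0.73 (SD, n = 3), MS4A1 at 2.10 ± 0.28 and CD8A between -3.97 and -3.04. The Rosco pair therefore stood apart from the later aspirates of that dog in its lymphocyte genes, and both of its arrays did so alike. Whether these aspirates and the relapse aspirates hold the same tumour was not tested, so relapse values below are those of samples with the same dog label.

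**Figure D1:**
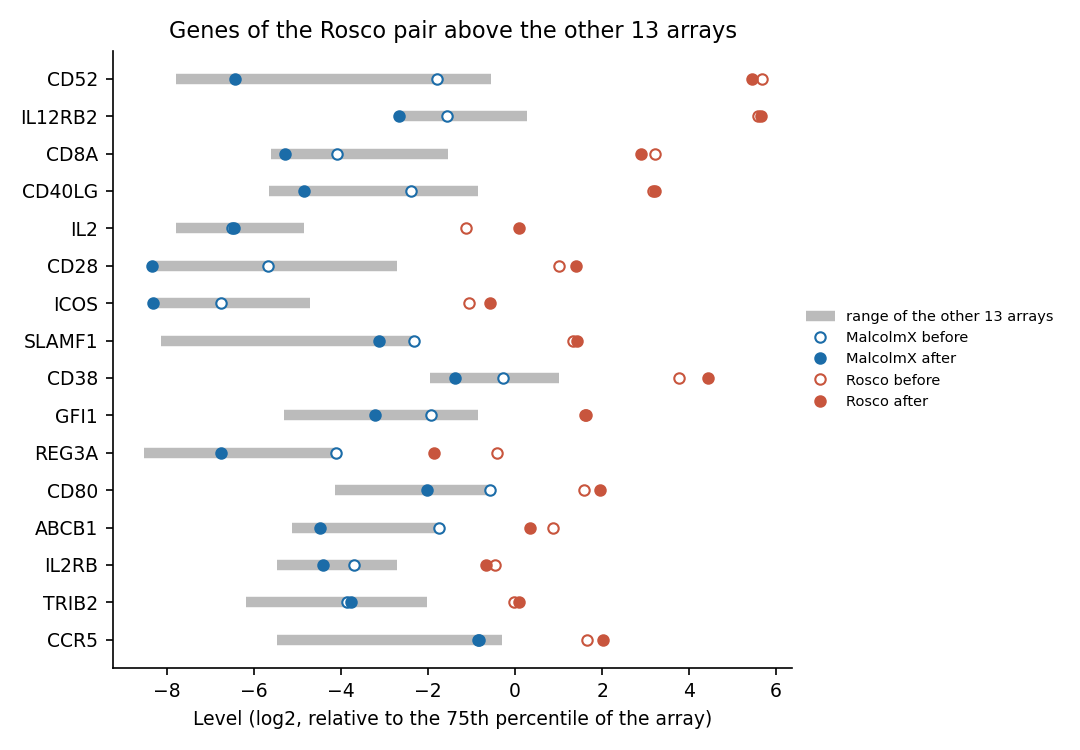
Levels (log2, relative to the 75th percentile of the array) of the 16 genes with the widest gap between the Rosco pair and all other arrays. Open and filled circles are the arrays before and after metformin, and grey bars span the other 13 arrays, those of MalcolmX included. The Rosco circles lie to the right of every bar, for CD52 at 5.66 and 5.45 against at most -0.56.

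The first question was how many genes differed in each dog. In MalcolmX 297 of 22269 targets (1.33%) were at least 2-fold higher after metformin and 1435 (6.44%) at least 2-fold lower. In Rosco 506 (2.27%) were higher and 342 (1.54%) lower. The balance in Rosco depended on the scaling, with 391 higher and 485 lower when each array was centred on its median, and 419 and 496 after quantile scaling. With normexp background correction the MalcolmX counts were 78 higher and 6205 lower, the median over all targets in that pair being shifted by -0.29, and the Rosco counts were 172 and 66. Levels within a pair correlated across targets at r = 0.980 in MalcolmX and 0.989 in Rosco. Targets are not independent replicates. For comparison, the relapse aspirates of Rosco, which share a label, also differed past 2-fold from each other. The counts were 324 targets for aspirates 1 and 2, 1463 for 1 and 3, and 2017 for 2 and 3. The 1732 targets in MalcolmX and 848 in Rosco lay within that range. Relapse aspirates 2 and 3 shared a slide, and relapse aspirate 1 lay on another.

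Few targets differed past 2-fold the same way in both dogs. There were 17 higher in both pairs (0.0763%) and 130 lower in both (0.584%). Another 23 (0.103%) were higher in MalcolmX and lower in Rosco, and 53 (0.238%) the reverse. Of the 342 targets lower in Rosco, 38.0% were also lower in MalcolmX, against 6.44% of all targets, and these were 9.06% of the MalcolmX set. Of the 506 targets higher in Rosco, 3.36% were higher in MalcolmX, against 1.33% of all, and 10.5% were lower in MalcolmX, against 6.44%. The pairs share no array. The differences of both pairs correlated weakly across targets, with r = 0.13 and Spearman's rho = 0.11. Genes with a symbol held 11 of the 130 shared lower targets, 2 of the 17 shared higher ones, 5 of the 23 and 8 of the 53 (1.17%, 0.213%, 0.534% and 0.854% of 937). Taken pair by pair, 22 of the 937 (2.35%) were higher and 106 (11.3%) lower in MalcolmX, and 29 (3.09%) were higher and 28 (2.99%) lower in Rosco.

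**Figure D2:**
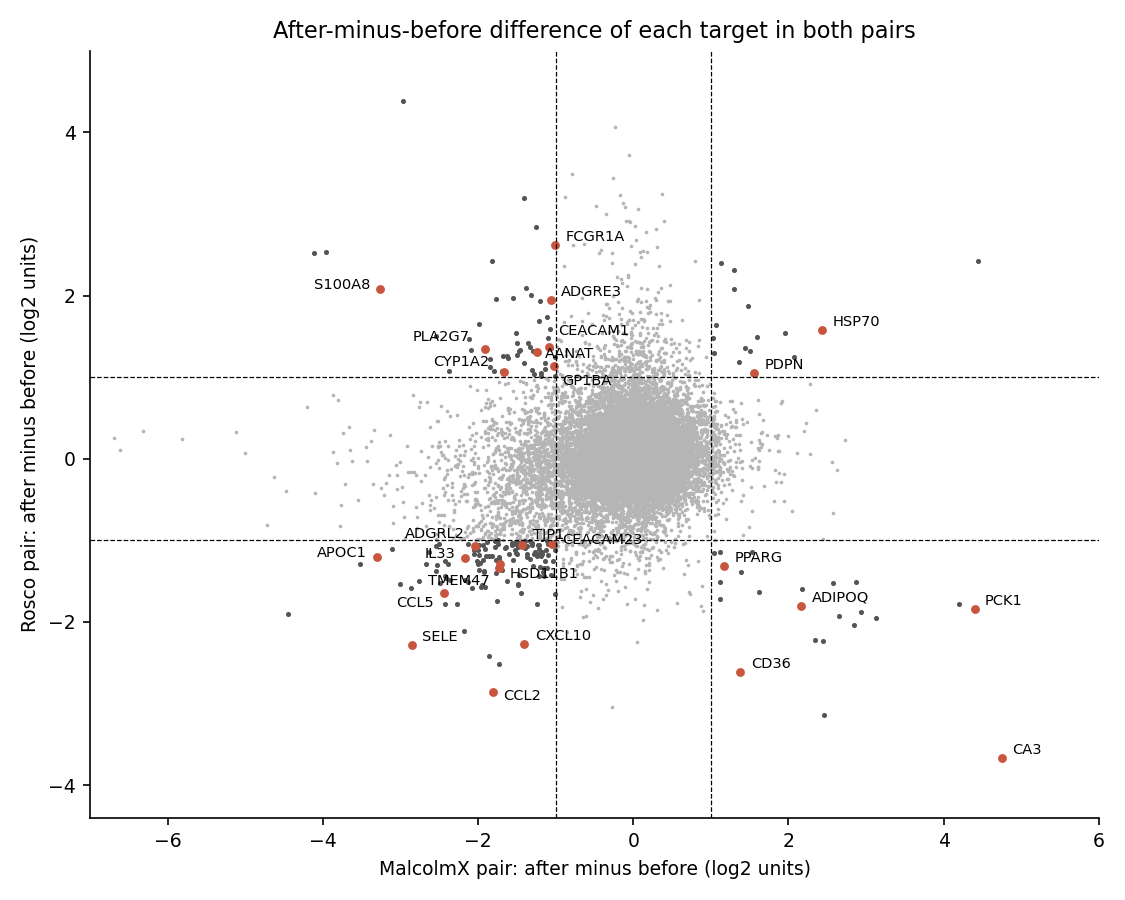
After-minus-before differences (log2 units) of 22269 targets, with MalcolmX on the x axis and Rosco on the y axis. Dashed lines mark 2-fold, dark points are past it in both pairs, and red points are the named ones. The lower left corner holds 130 targets and the upper right 17, and CA3 lies farthest to the lower right, at 4.76 and -3.67.

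No target passed a test over both dogs. In limma with the dog as a block, 0 of 22269 targets (0.0%) had an adjusted p below 0.05 after Benjamini-Hochberg adjustment, and 1425 (6.4%) had an unadjusted p below 0.05. The lowest adjusted p was 0.63. The same fit gave 0 calls when the dog was left out of the model, with 89 unadjusted, and 24 calls with median centring. The difference between the pairs, tested with limma using the spread of the relapse aspirates, also gave 0 calls (0.0%), with 1034 unadjusted (4.64%) and a lowest adjusted p of 0.489. Each pair alone in that fit gave 0 calls (0.0%), with 1610 unadjusted (7.23%) in MalcolmX and 896 (4.02%) in Rosco. That spread comes from 1 dog, and without the third relapse aspirate the MalcolmX pair had 490 calls and without the first 7. An exact sign-flip test of 2 pairs cannot give a p below 0.5. The values below are therefore described as higher or lower, with no call.

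The 11 genes lower past 2-fold in both dogs included SELE, CCL2, CCL5 and CXCL10. SELE encodes E-selectin, which endothelial cells display in inflammation to catch passing leukocytes. Its level went from 0.22 to -2.64 in MalcolmX and from -3.28 to -5.56 in Rosco, differences of -2.86 and -2.28. The mean over both pairs was -2.57 ± 0.24 (SE, limma; adjusted p = 0.63). MalcolmX after treatment was still above Rosco before it. A second SELE probe differed by -0.11 and 0.38, so the probes disagreed.

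CCL2 attracts monocytes. Its level was 3.81 before and 2.00 after in MalcolmX and 1.71 before and -1.14 after in Rosco, that is 3.51 times and 7.22 times lower. CCL5, released by T and NK cells, was at 0.82 and -1.61 in MalcolmX and at 3.37 and 1.73 in Rosco, 5.41 times and 3.12 times lower. In both chemokines the dog with the higher levels, MalcolmX for CCL2 and Rosco for CCL5, was still above the other dog's level before treatment. CXCL10, an interferon-induced chemokine for T cells, went from 0.01 to -1.39 and from -0.30 to -2.57, and here both arrays before treatment lay above both after it. The limma means were -2.33 ± 0.32 for CCL2, -2.04 ± 0.27 for CCL5 and -1.84 ± 0.28 for CXCL10 (SE; adjusted p = 0.63 for each).

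IL33, an alarm cytokine of vessel and stromal nuclei, was at -0.61 and -2.78 in MalcolmX and at -1.46 and -2.67 in Rosco, with no overlap between the arrays before and after. APOC1, an apolipoprotein also made by macrophages, was at 3.75 and 0.44 in MalcolmX and at 2.16 and 0.96 in Rosco, again without overlap. HSD11B1, which regenerates active glucocorticoid, was at 0.42 and -1.30 and at -2.98 and -4.32. TJP1, a scaffold of tight junctions, was at -0.31 and -1.74 and at -2.79 and -3.85. For HSD11B1 and TJP1 the levels of the dogs lay far apart, and both MalcolmX arrays were above both Rosco arrays. The adhesion receptor gene ADGRL2 differed by -2.04 and -1.07, the membrane protein gene TMEM47 by -1.72 and -1.29, and CEACAM23 by -1.05 and -1.04. CEACAM23 was the last gene inside 2-fold in both pairs, and CCL8, at -1.50 and -0.97, was the first outside it. Probes of 1 gene disagreed in direction in Rosco for TMEM47, from -3.21 to 0.22, and for ADGRL2, from -1.07 to 2.10. The other CEACAM23 probe differed by only -0.04 in MalcolmX and by -1.42 in Rosco.

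Slide could bear on these values in Rosco only, whose arrays before and after metformin lay on separate slides. With slide as a block, estimated from the relapse aspirates on the same slides, the targets lower in both pairs numbered 52 in place of 130. Of the 11 genes, 10 kept the direction and 3 stayed past 2-fold: the Rosco difference became -1.55 for CCL2, -2.31 for CCL5 and -2.44 for CXCL10. It became -0.28 for SELE, -0.39 for APOC1, -0.07 for CEACAM23 and 0.10 for TMEM47. In these relapse samples slide and relapse order cannot be told apart. The slide estimate sets relapse aspirate 1 against relapse aspirates 2 and 3. Aspirates 2 and 3, on the same slide, differed past 2-fold in 2017 targets. Aspirate 1, on the other slide, differed from aspirate 2 in 324 and from aspirate 3 in 1463. The estimate therefore holds more than slide, and slide alone was not tested, here or in the slide-block values below.

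Genes higher in both dogs were fewer. HSP70, the inducible heat shock chaperone, went from 0.66 to 3.09 in MalcolmX and from 3.52 to 5.09 in Rosco, 5.39 times and 2.98 times higher (mean 2.00 ± 0.28, SE, limma; adjusted p = 0.63). Both Rosco levels were above both MalcolmX levels, and the relapse aspirates spanned 0.79 to 2.87. All 4 probes of HSP70 gave higher values in both pairs, from 2.43 to 3.35 in MalcolmX and from 1.57 to 1.71 in Rosco. With slide as a block the Rosco difference of HSP70 was 0.29. PDPN, a mucin-like protein of lymphatic vessels and stromal cells, was at -4.52 and -2.96 in MalcolmX and at -5.99 and -4.94 in Rosco, all dim values. Its MalcolmX difference of 1.56 became -0.62 with normexp background correction. PKD1, a large membrane protein of the primary cilium, was the first gene outside 2-fold, at 1.39 and 0.68, and was -0.35 in MalcolmX with normexp.

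Smaller differences, higher in both dogs, were seen in TLR2, CD163, TIMP2 and UGT1A6. TLR2, a receptor for bacterial lipoproteins, was at -0.75 and -0.07 in MalcolmX and at -0.86 and -0.09 in Rosco, and both arrays after treatment were above both before. CD163, the haemoglobin scavenger receptor of macrophages, was at -0.64 and -0.08 and at -4.06 and -3.39. TIMP2, an inhibitor of matrix metalloproteinases, differed by 0.57 and 0.65. UGT1A6, which glucuronidates phenols, differed by 0.56 and 1.11, and its MalcolmX difference became -1.33 with normexp background correction.

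**Figure D3:**
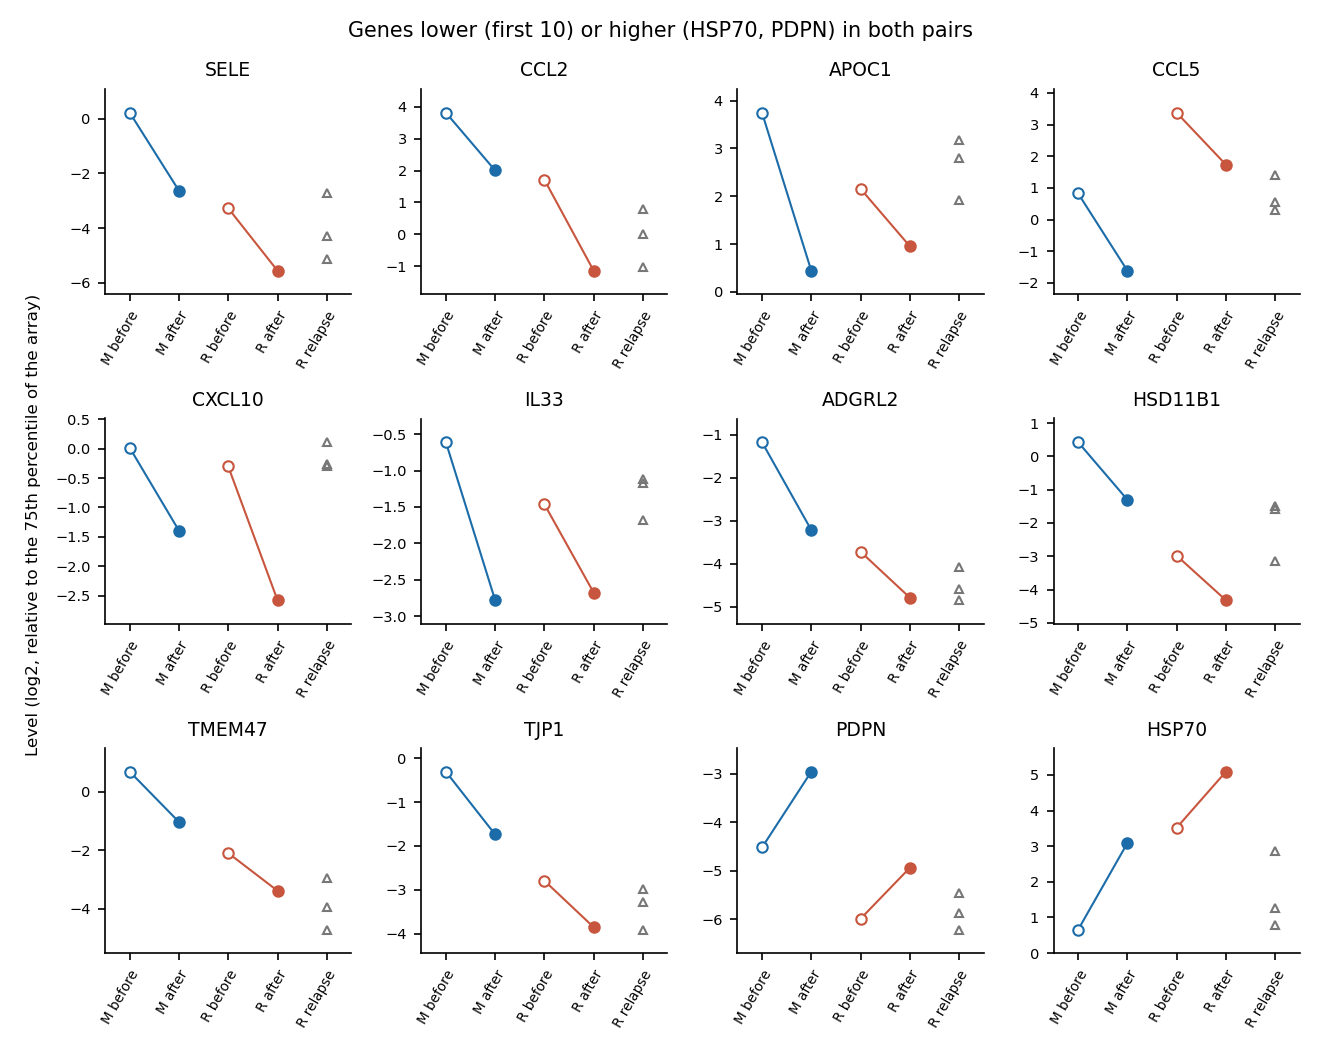
Levels (log2, relative to the 75th percentile of the array) of 10 of the 11 genes lower past 2-fold in both pairs and of both genes higher. Open circles are before and filled circles after metformin, for MalcolmX (M, blue) and Rosco (R, red), and triangles are the 3 relapse aspirates of Rosco. CXCL10 goes from 0.01 to -1.39 and from -0.30 to -2.57, and lies between -0.29 and 0.11 in the relapse aspirates.

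The 5 genes higher in MalcolmX and lower in Rosco were PCK1, CA3, ADIPOQ, CD36 and PPARG. PCK1 went from -1.71 to 2.69 in MalcolmX, 21.1 times higher, and from -1.12 to -2.96 in Rosco, 3.58 times lower. Its 3 probes agreed in direction, from 2.85 to 4.85 in MalcolmX and from -2.11 to -0.73 in Rosco. The relapse aspirates had PCK1 at -6.96 ± 1.12 (SD, n = 3), below all 4 arrays. CA3, a carbonic anhydrase of muscle and fat, went from -3.28 to 1.48 in MalcolmX and from -0.42 to -4.09 in Rosco, 27.0 times higher and 12.7 times lower. ADIPOQ, the adipocyte hormone adiponectin, was at -1.34 and 0.83 and at -0.44 and -2.24. CD36, a fatty acid transporter, was at -1.26 and 0.12 and at -2.29 and -4.90. PPARG, the master regulator of adipocyte formation, was at -2.36 and -1.19 and at -2.82 and -4.14. In all 5 genes MalcolmX after metformin was the highest of the 4 arrays, and Rosco after metformin the lowest. CD209, at 1.05 and -0.99, lay just outside 2-fold.

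The difference of PCK1 between the pairs was 6.24 ± 1.45 (SE, limma with the relapse spread; unadjusted p = 0.0073, adjusted p = 0.99), and that of ADIPOQ 3.97 ± 0.68 (unadjusted p = 0.0019, adjusted p = 0.99). Both genes were grouped here because the pairs moved oppositely, so these p-values are no separate support. Of 14 fat cell markers, 4 had a symbol and 3 were measured on all arrays. ADIPOQ was the one past 2-fold, while LEP and ADRB3 differed by -0.17 and -0.41 in MalcolmX and by 0.33 in Rosco each. The LEP probes disagreed, at -0.17 and 5.73 in MalcolmX and at 0.33 and -2.62 in Rosco. The list median was -0.17 in MalcolmX and 0.33 in Rosco with the brightest probe, and 2.50 and -1.14 with the mean of all probes. FFAR4, a fatty acid receptor of fat cells chosen after its values were seen, was not well above background before treatment in MalcolmX and at least 5.73 times higher after it, and at least 2.62 times lower after it in Rosco. Such a bound takes the dim array at the lowest signal that counted as well above background there, or at the probe's own signal where higher. The summed signal of the 3 measured fat genes, relative to the 75th percentile, was 2.56 and 3.45 in MalcolmX and 3.02 and 3.07 in Rosco. Of 7 muscle markers with a symbol, 4 were measured and CA3 alone was past 2-fold. The part of fat or muscle tissue in the PCK1 and CA3 values was not tested.

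The 8 genes lower in MalcolmX and higher in Rosco were S100A8, FCGR1A, ADGRE3, PLA2G7, CEACAM1, GP1BA, AANAT and CYP1A2. S100A8, an inflammatory calcium-binding protein of neutrophils and monocytes, was at 0.89 and -2.37 in MalcolmX and at 2.24 and 4.32 in Rosco, 9.59 times lower and 4.22 times higher. FCGR1A, the high-affinity IgG receptor of monocytes, was at -1.99 and -3.01 and at -2.71 and -0.09. ADGRE3, an adhesion receptor of myeloid cells, was at -3.08 and -4.15 and at -1.74 and 0.21. In these 3 genes Rosco in remission was the highest of the 4 arrays and MalcolmX after metformin the lowest. PLA2G7, a phospholipase secreted by macrophages, differed by -1.92 and 1.34. CEACAM1 differed by -1.08 and 1.37, with its 2 probes at -0.09 and 1.37 in Rosco. The platelet receptor gene GP1BA differed by -1.02 and 1.13. AANAT and CYP1A2, an enzyme of melatonin synthesis and a drug-oxidising cytochrome, were dim and differed by -1.24 and -1.67 in MalcolmX and by 1.31 and 1.06 in Rosco. With slide as a block, 7 of these 8 genes and 4 of the 5 of the opposite class stayed past 2-fold in Rosco, while the targets of this class numbered 97 in place of 53.

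**Figure D4:**
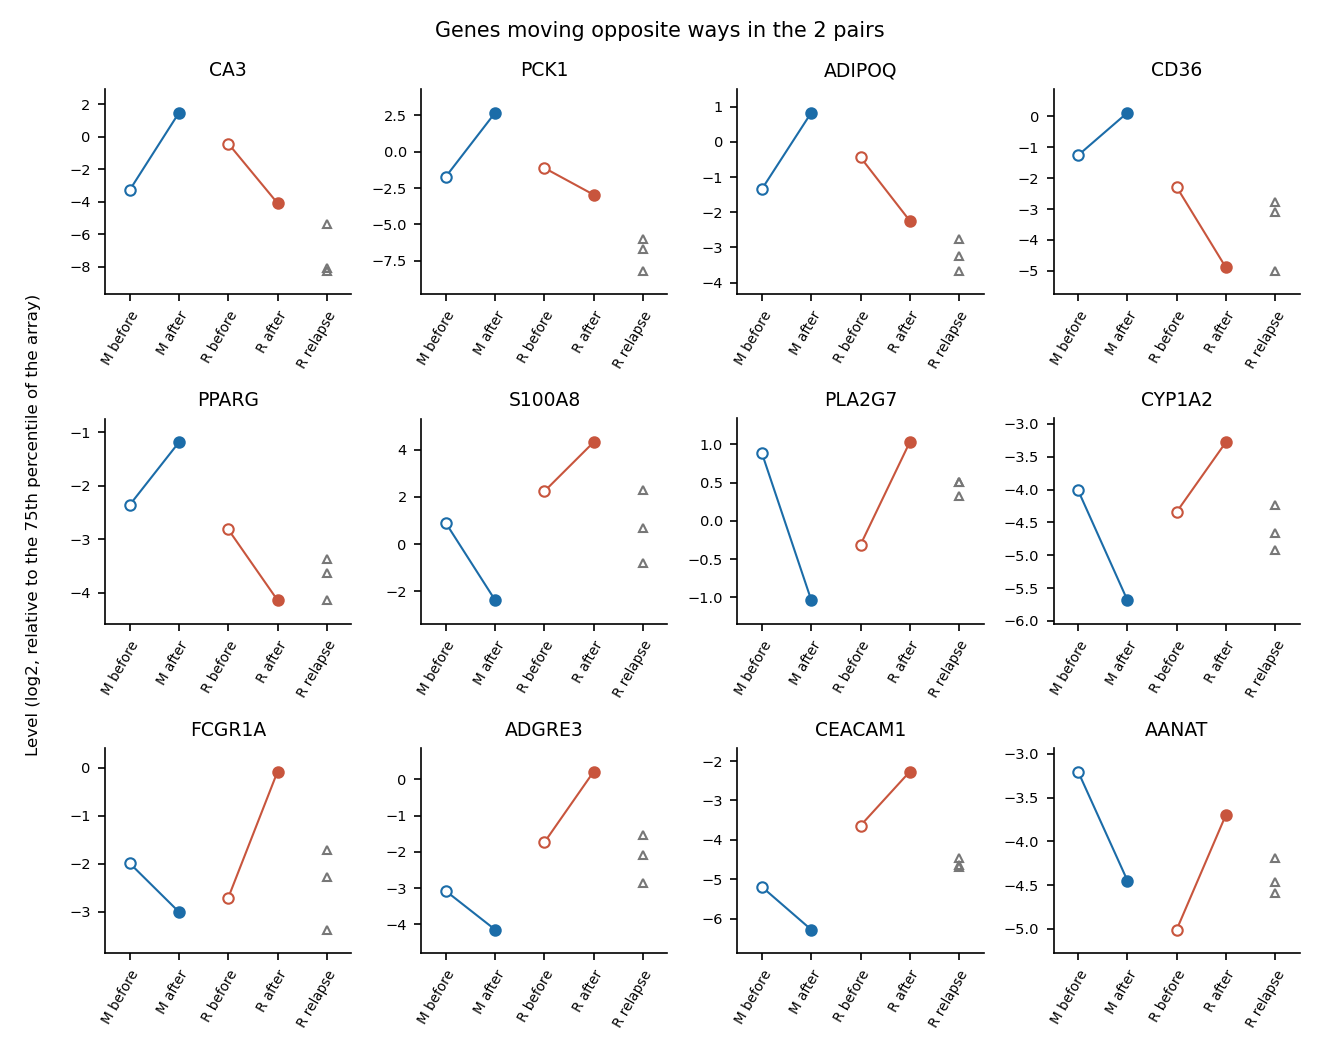
Levels (log2, relative to the 75th percentile of the array) of 5 genes higher in MalcolmX and lower in Rosco after metformin and of 7 of the 8 with the reverse pattern. Open circles are before and filled circles after metformin, for MalcolmX (M, blue) and Rosco (R, red), and triangles are the relapse aspirates. PCK1 goes from -1.71 to 2.69 in MalcolmX and from -1.12 to -2.96 in Rosco, while its relapse values lie between -8.19 and -6.00.

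Some of the largest differences belonged to 1 dog. CD52 went from -1.80 to -6.43 in MalcolmX, 24.7 times lower, and was nearly level in Rosco. The level of -6.43 lay near the lowest signal well above background on that array, -6.84, so the fold is imprecise. CAMP, a neutrophil antimicrobial peptide, went from 0.48 to -3.73 in MalcolmX and from 0.74 to 1.37 in Rosco. MMP9, a gelatinase stored in neutrophil granules, went from -1.16 to -4.91 and from -0.99 to -0.68. CCL21, which guides T cells and dendritic cells into lymph nodes, went from -0.23 to -3.95 and from -0.01 to -0.31, and the mast cell receptor gene FCER1A from -1.18 to -4.84 and from -0.16 to -0.05. In these 5 genes the aspirate of MalcolmX was the lowest of the 4 arrays. SLC1A3, a glutamate transporter, was 2.05 higher in MalcolmX and 0.64 lower in Rosco.

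CXCL8, the neutrophil-attracting interleukin-8, was well above background on 3 of the 4 arrays. In Rosco it went from -4.20 to -0.01, 18.2 times higher in remission, and its 4 probes gave differences of 4.19 to 5.60. The other 11 arrays spanned -4.92 to -2.35, so the remission aspirate was the highest of the series. In MalcolmX CXCL8 was not well above background before treatment and at -5.12 after it. DKK3, a secreted Wnt modulator, was 1.85 higher and CALCR, the calcitonin receptor gene, 1.70 higher in Rosco alone, against -0.31 and 0.14 in MalcolmX. The DKK3 probes disagreed in Rosco, from -0.96 to 1.85.

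Gene lists were read by counts and medians, against 49.3% of all targets lower by any amount in MalcolmX (59.8% of those with a symbol) and 49.1% in Rosco (50.1%), with 25.7% lower in both. The shares higher were 50.7% and 50.9%. Of 11 measured chemokines, 10 were lower in MalcolmX, all 10 past 2-fold, and 11 were lower in Rosco, 3 past 2-fold. The median difference was -1.81 in MalcolmX and -0.97 in Rosco, against 0.01 over all targets in either pair. Beside CCL2, CCL5, CXCL10 and CCL8, CCL17, a T cell attractant, went from -2.07 to -5.01 and from -1.90 to -2.87. The exception in MalcolmX was the skin chemokine gene CCL27, chosen after its values were seen, at 0.43. CCL3, a macrophage and T cell chemokine that was not well above background on the arrays after treatment and was chosen likewise, was at least 13.1 times lower in MalcolmX and at least 9.04 times lower in Rosco. It is 1 of 10 chemokines with a symbol that the filter left out, of which 5 were well above background on none of the 4 arrays. CX3CL1 and CCL25, both dim before treatment in MalcolmX, were higher in both dogs, by 0.75 and 0.79 in Rosco and at least 1.05 and 1.14 times in MalcolmX. CCL24, measured only after treatment in MalcolmX, was at least 1.39 times higher there. CXCL8 was dim on 1 array and higher in Rosco. With slide as a block 8 of the 11 were lower in Rosco, with a median of -0.51. Of 4 measured chemokine receptors, 2 were lower in MalcolmX and 0 in Rosco.

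Markers of other cell types differed along with the chemokines in MalcolmX. Of 4 endothelial markers, 4 were lower in MalcolmX (median -1.69) and 3 in Rosco (median -0.42). KDR, a receptor for vascular growth factor, was at 0.37 and -1.10 in MalcolmX and at -2.99 and -3.80 in Rosco, where its difference became 0.18 with slide as a block. SELP was 1.92 lower in MalcolmX and 0.64 higher in Rosco. The summed endothelial signal was 30.4 and 19.1 in MalcolmX and 23.7 and 23.1 in Rosco, and 16.1 to 25.6 at relapse. The endothelial count in Rosco was 2 after quantile scaling and 1 with slide as a block. Of 8 fibroblast and matrix genes, 5 were lower in MalcolmX, 3 past 2-fold, and 3 in Rosco, 0 past 2-fold. COL1A1 and COL1A2, the chains of type I collagen, were at 4.39 and 1.33 and at 6.57 and 4.23 in MalcolmX, but DCN, which encodes the matrix proteoglycan decorin, was at 3.12 and 4.98. The summed signal of the 8 genes was 148 and 73.6 in MalcolmX, 41.0 and 47.2 in Rosco and 6.79 to 10.7 at relapse. Most of the Rosco sum was THY1, a surface protein of T cells and fibroblasts, at 4.80 and 5.18. THY1 lay between -0.10 and 0.68 at relapse. The higher sum after metformin in Rosco came from THY1 and is not a measure of matrix. The part of vessel and matrix content in the shared lower genes was not tested.

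All 4 measured neutrophil markers were lower in MalcolmX (median -3.51) and higher in Rosco (median 0.52). The summed signal was 3.79 and 0.38 in MalcolmX, 6.93 and 23.2 in Rosco and 0.90 to 5.72 at relapse. Most of the Rosco sum was S100A8, which was 2.08 higher there after metformin. CXCR2, left out by the filter, was well above background in MalcolmX only after treatment, at -6.76. In Rosco CXCR2 was 3.61 times higher. Of 6 monocyte and macrophage markers 5 were lower in MalcolmX (median -1.19) and 4 higher in Rosco (median 0.34), with summed signals of 14.2 and 6.31 and of 12.4 and 14.1. The pairs differed in direction for 3 of these 6 genes. CD86, a co-stimulator on antigen-presenting cells, was at 2.32 and 0.28 in MalcolmX and at 2.07 and 1.58 in Rosco. Of 7 T and NK cell markers, 6 were lower in MalcolmX and 5 in Rosco (medians -0.72 and -0.10), with summed signals of 2.53 and 0.91 and of 22.0 and 13.7. CCL5 counts in this list and among the chemokines. It was the brightest of the measured markers in Rosco before treatment, at 3.37, and was at 1.73 after it. The lower summed signal in Rosco therefore rests mostly on CCL5. KLRD1, a receptor chain of NK cells, was at -2.73 and -4.58 in MalcolmX and at -0.12 and 0.57 in Rosco. CTLA4, an inhibitory T cell receptor chosen after its values were seen, was at least 16.2 times lower in MalcolmX. In Rosco CTLA4 was 2.12 times higher, at 0.74 and 1.82. Of the other markers left out by the filter, CD28 and ICOS were 0.40 and 0.47 higher in Rosco. IFNG, also left out, was at least 1.76 times lower there. The count of T and NK markers lower in Rosco was 3 with slide as a block. The part of infiltrating cells in the differences of S100A8, FCGR1A and ADGRE3 was not tested.

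**Figure D5:**
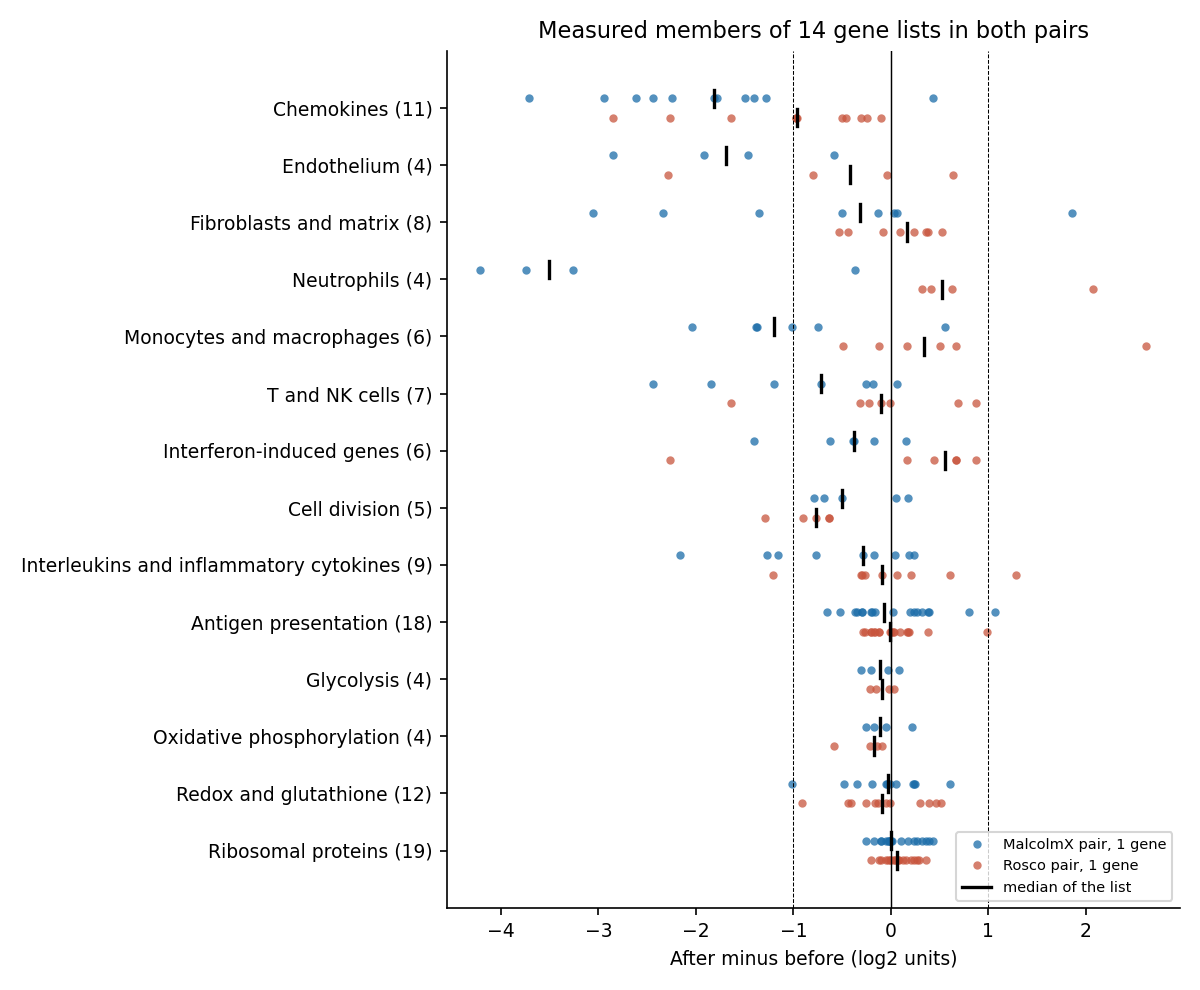
After-minus-before differences (log2 units) of the measured members of 14 gene lists, with the number of members in parentheses. Each point is 1 gene in the MalcolmX pair (blue, upper) or the Rosco pair (red, lower), and black bars are list medians. Chemokines lie left of 0 in both pairs but for 1 gene in MalcolmX, and the 4 neutrophil genes lie on opposite sides.

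All 5 measured genes of dividing cells were lower in Rosco (median -0.77), 1 past 2-fold, and 3 were lower in MalcolmX (median -0.50), and no difference between the dogs was called. BIRC5, an inhibitor of apoptosis active in mitosis, was at 1.96 and 1.46 in MalcolmX and at 1.32 and 0.69 in Rosco. ASPM, a spindle protein gene, was at 0.47 and -0.31 and at -0.71 and -1.61, and the cyclin gene CCNB3 at 0.05 and -0.63 and at -1.61 and -2.90. TYMS, which makes thymidylate for DNA synthesis, was at 4.23 and 4.41 and at 3.52 and 2.88. UBE2S, an enzyme that extends ubiquitin chains for the anaphase promoting complex, was at 1.72 and 1.78 and at 2.07 and 1.30. In each of these 5 genes the remission aspirate was the lowest of the 4 arrays. The relapse aspirates were above all 4 arrays, with BIRC5 at 2.95 ± 0.05, UBE2S at 3.44 ± 0.15 and TYMS at 4.96 ± 0.11 (SD, n = 3). CDC25A, a phosphatase that starts DNA replication, was not well above background on either array before treatment and was at least 1.30 times higher in MalcolmX and 1.87 times higher in Rosco.

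Of 6 measured interferon-induced genes, 5 were lower in MalcolmX (median -0.38) and 5 higher in Rosco (median 0.56). MX1, an antiviral GTPase, was at 4.33 and 3.95 in MalcolmX and at 1.59 and 2.46 in Rosco, and OAS1, which senses viral RNA, at 1.07 and 0.69 and at 1.08 and 1.75. CXCL10 was the exception in Rosco, and only it was past 2-fold in either pair. Of 9 measured interleukins and inflammatory cytokines, 6 were lower in MalcolmX and 5 in Rosco. IL10, an immunosuppressive cytokine, was at -3.03 and -2.98 in MalcolmX and at -2.34 and -1.06 in Rosco.

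PCK1, above, was the one measured gene of the gluconeogenesis list. None of the AMPK and mTOR genes carried a symbol here. The 4 measured genes of oxidative phosphorylation were lower in 3 cases in MalcolmX and 4 in Rosco, with medians of -0.11 and -0.18. CYCS, the electron carrier cytochrome c, was at 4.45 and 4.20 in MalcolmX and at 4.03 and 3.44 in Rosco. The 4 glycolysis genes had medians of -0.11 and -0.09, and GAPDH was at 6.23 and 6.20 and at 6.49 and 6.52. SREBF1, which drives lipid synthesis, differed by -0.11 and 0.30. Of 12 redox genes, 7 were lower in MalcolmX and 8 in Rosco, with GPX8 at -1.02 and -0.91 the widest shared difference. The 19 ribosomal protein genes had medians of 0.01 and 0.06.

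Genes tied to drug resistance were measured in 4 cases. ABCB1 encodes P-glycoprotein, the pump that exports doxorubicin and vincristine. It was at -1.75 and -4.47 in MalcolmX, 6.61 times lower, and at 0.88 and 0.34 in Rosco, and both Rosco levels lay above all 13 other arrays. With slide as a block the Rosco difference of ABCB1 was 0.0070. ABCC1, another drug exporter, was at 0.10 and -0.18 in MalcolmX and at -0.96 and -0.65 in Rosco. All 4 exporters were lower in MalcolmX and 1 was lower in Rosco. HMOX1, which degrades haem under oxidative stress, was at -2.58 and -4.18 and at -3.52 and -2.91, and PTGS2, the inducible cyclooxygenase, at -0.08 and -1.65 and at -2.06 and -2.86. Antigen presentation genes were evenly divided, with 9 of 18 lower in either pair and medians of -0.07 and -0.0036.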

How the data were processed

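Each of the 4 samples was read on its own one-colour (Cy3) canine Agilent array. Spot intensities were extracted by the authors with Agilent Feature Extraction 11.0.1.1, per the submitters' processing notes, and its processed signal has the local background subtracted, per the file headers. The deposited flags of 0 or 1 mark signal well above background and outlying spots, per the file headers.

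Outlying spots were left out, log2 was taken, the log2 of the array's 75th percentile was subtracted, and spots of a probe were then averaged. The probe with the highest mean over 15 arrays stood for a target. Names came only from RefSeq transcript identifiers through a table of the assembly UU_Cfam_GSD_1.0 (2186 of 43603 probes), so no positions are given. Differences were tested two-sided in limma 3.58.1 (R 4.3.3), with Benjamini-Hochberg adjustment over 22269 targets and a threshold of 0.05. The dog was a block because the labels name the same animal before and after, leaving 1 residual degree of freedom. The difference between the pairs took its spread from the relapse aspirates (2 degrees of freedom). The code was tested on simulated data. P-values measure only the spread between the samples each fit used, which may be technical. For each pair alone and for the difference between the pairs, these were the relapse aspirates of Rosco.

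The samples, lists and tests were chosen with earlier results of these data known. Named genes were those with a symbol, well above background on all 4 arrays: the 12 highest and 12 lowest shared differences, ranked by the smaller of both sizes, 8 of each opposite class, the 5 largest each way per pair, up to 4 per list, and 10 genes named in any case. Alternatives were other scalings, normexp background correction (offset 50), the deposited series table of intensities (floor 1), other filters, folds and probe rules, left-out arrays and, added after seeing the data, slide as a block.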

Additional observations from a re-analysis of the deposited data

How the results depend on the processing

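The pairs were compared again under each alternative. With the dog left out of the model, that is no replicate block, 0 targets were called (89 unadjusted). Median centring gave 24 calls in the dog-block fit, against 0 under every other setting of that fit. With normexp background correction the MalcolmX counts became 78 higher and 6205 lower, the Rosco counts 172 and 66, and the counts of shared targets 3 higher, 16 lower and 11 higher in MalcolmX and lower in Rosco. The deposited series table gave 195 higher in MalcolmX and 91 lower in MalcolmX and higher in Rosco.

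In the order higher in both, lower in both, higher in MalcolmX and lower in Rosco, and the reverse, the counts were 117, 211, 40 and 93 when a target had to be well above background on both arrays of 1 group. They were 175, 686, 101 and 826 with no filter, 130, 551, 70 and 249 at 1.5-fold, and 1, 2, 5 and 4 at 4-fold. Leaving out a pair leaves the counts of the other, from 297 to 506, from 342 to 1435, from 297 to 342 and from 506 to 1435. The added slide block gave 52 lower in both, 97 lower in MalcolmX and higher in Rosco, and 7 calls for MalcolmX against the relapse spread. Leaving out 1 relapse aspirate gave 0 to 490 such calls, 490 without the third and 7 without the first. The difference between the pairs had 0 calls in every setting.

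Among named differences past 2-fold, the direction turned in 5 cases: ADGRL2 in Rosco with the mean of all probes (0.26), CNGA1 (-1.27), PDPN (-0.62) and PKD1 (-0.35) in MalcolmX with normexp, and TMEM47 in Rosco with the slide block (0.10). At any size, the direction of 34 of 260 named differences turned with normexp, 12 with the mean of probes, 11 with the deposited series table, 9 with median scaling and 8 with quantile scaling, and 21 of 130 in Rosco with the slide block. The cause was not tested in any of these. Fewer targets pass a stricter filter or fold by construction.

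Low signal limits what can be said of dim targets. Of the 17 targets higher in both pairs, 15 lay in the lowest of 3 equal bins of mean level, against 60 of the 130 lower in both. Neither pair has a replicate, and biopsy against aspirate (MalcolmX) and slide (Rosco) cannot be told apart from treatment within a pair. Only 937 of the 22269 targets have a symbol, so the gene lists are incomplete.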

Other observations

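Most shared targets had no symbol. Of these, the transcript target ENSCAFT00000046560 had the widest shared higher level by the smaller of its differences, going from -3.50 to 0.94 in MalcolmX and from -4.76 to -2.34 in Rosco. The transcript target ENSCAFT00000048753 went from 2.58 to 0.40 and from 2.37 to 0.25, with both arrays before treatment above both after it. Neither passed the limma test (adjusted p = 0.63 for each, dog as a block).

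Several genes of the Rosco pair also differed from the relapse aspirates. CXCL8 stood at -0.01 in the remission aspirate, against -4.20 before metformin and -4.66 to -4.11 in the relapse aspirates. CAMP was at 0.74 and 1.37 in the Rosco pair and between -2.82 and -0.85 at relapse, and MX1 was at 1.59 and 2.46 in the pair and between 5.49 and 5.74 at relapse. BCL2, an inhibitor of apoptosis, was at 4.25 and 5.04 in the pair and between 1.90 and 2.41 at relapse. THY1, a surface protein of T cells and fibroblasts chosen after its values were seen, was at 4.80 and 5.18 in the pair and between -0.10 and 0.68 at relapse. In these 4 genes, CAMP, MX1, BCL2 and THY1, both arrays of the pair lay on the same side of the relapse range.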
